A study of Mus musculus with 4 samples.

Results

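The TNF receptor superfamily genes described here are Tnfrsf1a, Tnfrsf1b, Tnfrsf4, Tnfrsf9, Tnfrsf11a, Tnfrsf18, Tnfrsf25, Cd27, Fas and Ltbr. They are 10 of the 30731 genes listed in all 4 deposited tables, were taken by symbol from a fixed list rather than by their values, and all 10 passed the filter on low counts. Proteins of this superfamily carry cysteine-rich repeats outside the cell and bind trimeric ligands of the TNF family. Some have a death domain in the cytoplasm, which recruits adaptors that lead to caspases or to NF-kB, whereas the others recruit TRAF proteins and signal mainly to NF-kB. In lymphocytes they are known as co-stimulatory receptors, as triggers of death, and, in lymphoid organ formation, as the receptors of lymphotoxin and RANKL.

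The series profiled RNA from cells of innate lymphoid groups 3, 2 and 1 that were also used for Hi-C. MNK-3 (2 libraries) is a wild-type cell line labelled ILC3-like, started from thymocytes of NIH-Swiss fetuses at day 15 and grown with IL-15 and IL-7, each at 10 ng/ml. ILC2 (1 library) were wild-type bone marrow cells of pooled C57BL/6 mice aged 8 to 12 weeks, expanded with IL-33, IL-25, IL-7 and IL-2, each at 10 ng/ml. NK cells (1 library) came from the spleen of wild-type pooled C57BL/6 mice of the same age range, with no culture named for them. Cell type cannot be told apart from tissue or culture here. For MNK-3, strain, the counting gene set and descent from a single line go with the cell type as well. In bulk RNA, fewer cells carrying a transcript and less transcript per cell cannot be told apart either.

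Levels are CPM, read counts scaled to the library's total over the shared genes. These totals were 25617762 and 15177345 in MNK-3 replicates 1 and 2, 9298162 in ILC2 and 4637812 in NK. Intervals given with levels are exact 95% Poisson intervals and those given with folds are exact conditional binomial ones. Both cover counting error only. The labelled cell types matched their markers in part: the summed CPM of the 6 ILC3 markers was 1869 and 2734 in MNK-3, against 219 in ILC2 and 94.2 in NK, that of the 5 ILC2 markers was 5474 in ILC2, and that of the 6 NK markers 6981 in NK. Of the ILC2 markers, Il17rb, a chain of the IL-25 receptor, had only 3.98 CPM in ILC2. Most of the ILC3 sum in MNK-3 was Kit (1044 and 1535 CPM), and Il22 had 7.73 and 8.76 CPM there, against 4.62 in ILC2. The NK markers summed to 83.4 and 69.3 CPM in MNK-3 and 18.7 in ILC2, and the ILC2 markers to 144 and 95.5 in MNK-3 and 132 in NK. MNK-3 replicate 1 stood apart, with 75.8% of its reads assigned to no counted feature (23.1% to 47.1% in the other libraries). Where such reads lie, inside or outside genes, is not given. Replicate 1 also had a count in 95.6% of shared genes (69.6% to 76.0% in the others). Markers of other cells were detected in replicate 1 throughout: the 8 T cell markers summed to 124 CPM in replicate 1 and 5.67 in replicate 2, the 6 B cell markers to 43.2 and 1.65, and the 8 myeloid markers to 34.7 and 1.52. In ILC2 and NK the T cell sums were 12.5 and 35.1 CPM, the B cell sums 41.1 and 13.4, and the myeloid sums 13.2 and 241. Most of the B cell sum in ILC2 was Cd79b (37.6 CPM), and most of the myeloid sum in NK was Itgam (233 CPM). The part of other cells in the receptor values was not tested, so the values of both MNK-3 libraries are given throughout.

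A bearing on low levels came from the 4151 protein-coding genes with no count in MNK-3 replicate 2. In replicate 1 these genes had a median of 0.580 CPM per kb of exon, and a 95th percentile of 2.77. All of the 10 receptor genes lay above that percentile in replicate 1, but 3 of them, Fas, Cd27 and Tnfrsf4, were under 1 CPM per kb in replicate 2. Fas is itself among the 4151 genes. They leave out genes with a few counts in replicate 2, such as Cd3e (30.4 and 0.0659 CPM in replicates 1 and 2). Lying above the percentile therefore cannot set a receptor level apart from low-level reads in replicate 1.

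**Figure D1:**
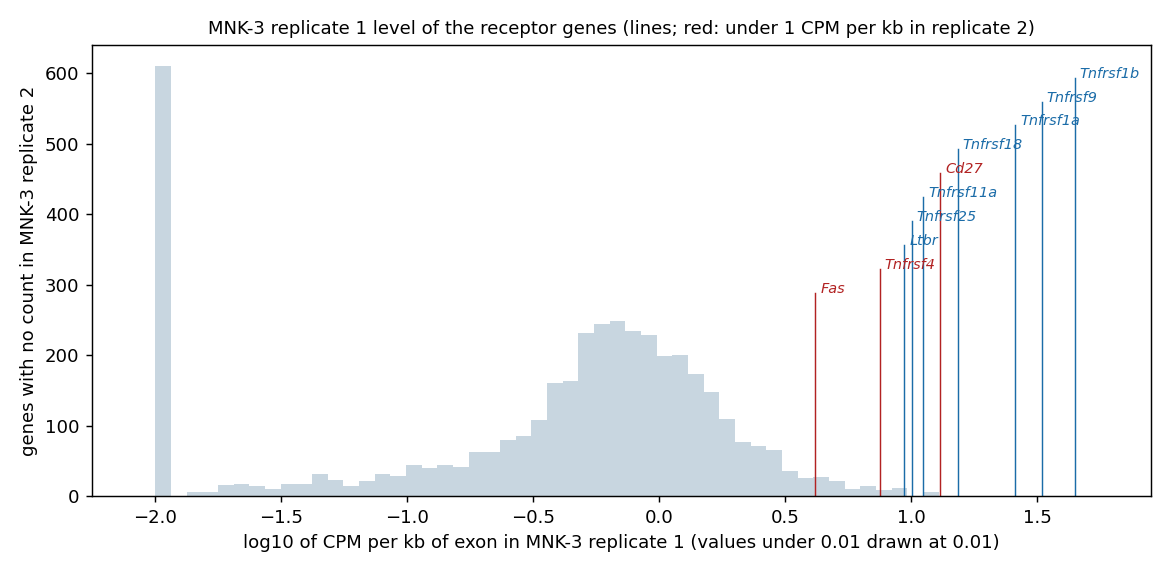
Distribution, over the 4151 protein-coding genes with no count in MNK-3 replicate 2, of the level in MNK-3 replicate 1 (x axis: log10 of CPM per kb of exon; y axis: number of genes), with lines at the replicate 1 levels of the 10 receptor genes. Fas at 4.16, Tnfrsf4 at 7.49 and Cd27 at 13.0 CPM per kb (red) are the genes that were under 1 CPM per kb in replicate 2.

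Ordered by CPM per kb of exon, which allows genes to be compared with each other, Tnfrsf1b and Tnfrsf9 led in MNK-3 and in ILC2, whereas Tnfrsf1b and Cd27 led in NK. Tnfrsf1b, which encodes TNF receptor 2, had 44.6 and 54.9 CPM per kb in MNK-3, 87.6 in ILC2 and 56.3 in NK. Tnfrsf9, which encodes the co-stimulatory receptor 4-1BB, had 33.0 and 42.8 CPM per kb in MNK-3, 108 in ILC2 and 24.6 in NK. Tnfrsf1b and Tnfrsf9 together held 44.6% and 54.2% of the family's length-scaled reads in the MNK-3 libraries, 73.2% in ILC2 and 43.0% in NK. At the other end, 3 genes were under 1 CPM per kb in MNK-3 replicate 2, 1 gene in ILC2 (Tnfrsf4, 0.867) and 1 gene in NK (Tnfrsf11a, 0.360). NK thus had 5 genes between 24.6 and 56.3 CPM per kb and 5 at 2.20 or less.

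**Figure D2:**
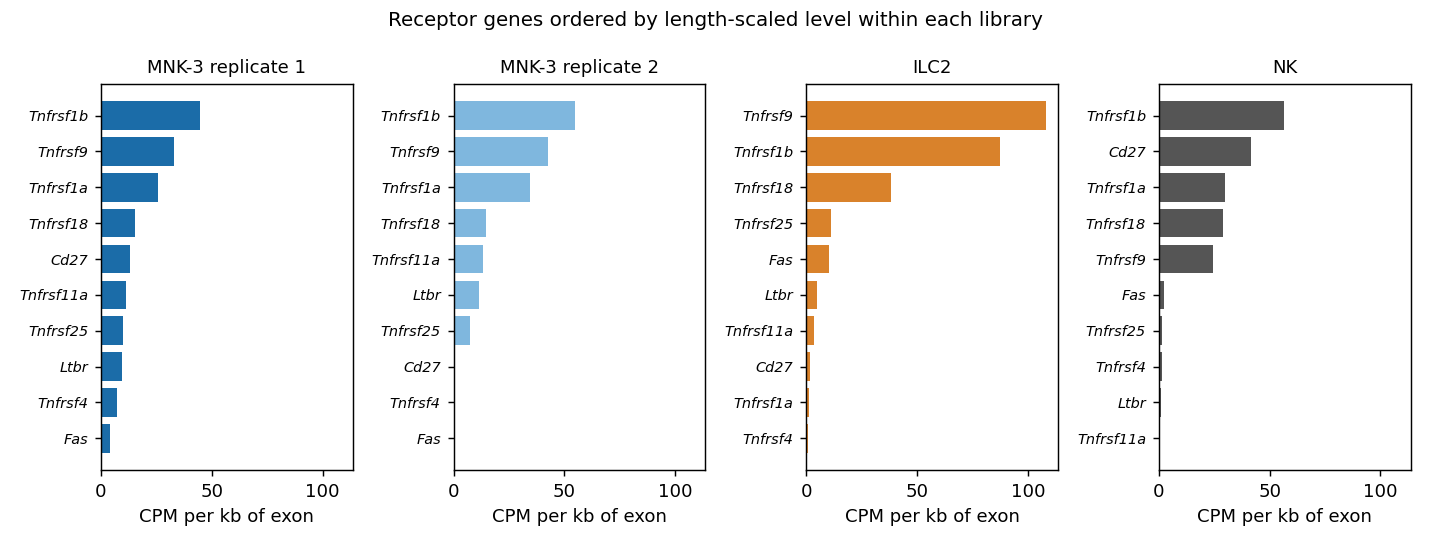
CPM per kb of exon (x axis, linear from 0) of the 10 receptor genes in each library, each panel sorted by its own values. Tnfrsf9 tops ILC2 at 108, and Tnfrsf1b tops both MNK-3 libraries and NK at 44.6, 54.9 and 56.3.

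Among the death domain receptors, the 3 genes had 3 different patterns. Tnfrsf1a, which encodes TNF receptor 1 (ENSMUSG00000030341, chromosome 6, 125349362 to 125362484, plus strand, mm10), had 67.0 and 89.2 CPM in MNK-3, 3.12 CPM in ILC2 (95% interval 2.09 to 4.48) and 77.2 CPM in NK (69.4 to 85.6). MNK-3 and NK overlapped, and ILC2 lay far below both. In MNK-3 the level was 21.5-fold (95% interval 14.9 to 32.2) and 28.6-fold (19.8 to 42.9) that in ILC2. In ILC2 it was 0.0404 of that in NK (0.0267 to 0.0590). Neither difference passed the test (limma voom log2 folds of 4.57 with an SE of 3.44 and -4.61 with an SE of 3.48, adjusted p = 0.999 each). TNF receptor 1 was thus low in the library that had the highest level of TNF receptor 2.

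Tnfrsf25, which encodes DR3, the receptor for TL1A and a co-stimulator of ILC2, had 22.9 and 16.6 CPM in MNK-3, 25.1 CPM in ILC2 and 3.67 CPM in NK (ENSMUSG00000024793, chromosome 4, 152115934 to 152120119, plus strand). MNK-3 and ILC2 lay close together and NK lower. MNK-3 replicates 1 and 2 were 6.24-fold (95% interval 3.86 to 10.8) and 4.53-fold (2.77 to 7.90) above NK, and ILC2 was 6.84-fold above NK (4.18 to 11.9). Replicate 1 of MNK-3 could not be told from ILC2 by its counting interval (0.913 of the ILC2 level, 0.783 to 1.07), while replicate 2 lay at 0.663 of it (0.552 to 0.795). None of the 3 comparisons passed the test for Tnfrsf25 (limma voom, SE of 4.31 for the log2 fold of 2.44 over NK, adjusted p = 1.00).

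Fas, the death receptor for Fas ligand (ENSMUSG00000024778, chromosome 19, 34290666 to 34327772, plus strand), had 8.59 CPM in MNK-3 replicate 1, no count in replicate 2, 21.7 CPM in ILC2 and 4.53 CPM in NK. The MNK-3 libraries lay on either side of NK, so the order of MNK-3 and NK depends on the library. No count in replicate 2 was set at a floor of 0.198 CPM (3 counts of that library), whereas its 95% interval reaches up to 0.243 CPM. Taken at the floor, with counting error left aside, Fas was 110-fold lower in replicate 2 than in ILC2 and 22.9-fold lower than in NK. With the counting error of both libraries included, the exact conditional intervals reach up to 0.0113 of the ILC2 level and 0.0587 of the NK level. In replicate 1 it was 0.395 of the ILC2 level (95% interval 0.325 to 0.481). ILC2 was 4.80-fold above NK (3.06 to 7.92). Fas passed in no comparison either, with SEs of 3.61 to 5.29 on the log2 folds of limma voom.

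Among the receptors without a death domain, Tnfrsf1b was at 170 CPM or more in every library. Tnfrsf1b (ENSMUSG00000028599, chromosome 4, 145213463 to 145246870, minus strand) had 170 and 210 CPM in MNK-3, 334 CPM in ILC2 and 215 CPM in NK. ILC2 was the highest library and MNK-3 replicate 2 lay within the counting interval of NK (202 to 229). ILC2 was 1.56-fold above NK (95% interval 1.45 to 1.67). For MNK-3 over ILC2 the log2 fold was -0.85 (SE 0.28), which missed the threshold (limma voom, adjusted p = 0.0661).

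Tnfrsf9 was the member that passed the test in a comparison. Tnfrsf9 (ENSMUSG00000028965, chromosome 4, 150914562 to 150946102, plus strand) had 89.8 and 116 CPM in MNK-3, 294 CPM in ILC2 (95% interval 284 to 306) and 67.1 CPM in NK (59.8 to 74.9). All other libraries lay below ILC2, and NK was the lowest. In MNK-3 the gene fell relative to ILC2, with a log2 fold of -1.56 and an SE of 0.30 (limma voom, adjusted p = 2.90e-05). The call did not hold when libraries were scaled otherwise (limma voom, adjusted p = 1.00 each), where the log2 fold was -1.53 with an SE of 0.69 by abundant genes, -1.83 with 1.16 by TMM and -2.07 with 1.63 by median-of-ratios factors. For ILC2 over NK the log2 fold of 2.13 (SE 0.67) missed the threshold (limma voom, adjusted p = 0.0923), and the counts gave 4.39-fold (95% counting interval 3.90 to 4.95). MNK-3 over NK had a log2 fold of 0.57 (SE 0.65), which did not pass either (limma voom, adjusted p = 1.00).

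The RefSeq promoter table (GRCm38.p6, the build of the files) holds a pair of start sites for Tnfrsf9, and their windows of 250 bases before to 50 after the start are shown because this is the member that passed the test. Capitals mark matches, on either strand, to the motifs searched: the kB motif of NF-kB, AGATAA for factors of the GATA family, TGTGGT for RUNX factors, CCGGAA for ETS factors, GGTGTGA for T-box factors, AGGTCA for ROR factors and GGGCGG for the GC box.

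Tnfrsf9 upstream start, chr4:150919905-150920204, plus strand: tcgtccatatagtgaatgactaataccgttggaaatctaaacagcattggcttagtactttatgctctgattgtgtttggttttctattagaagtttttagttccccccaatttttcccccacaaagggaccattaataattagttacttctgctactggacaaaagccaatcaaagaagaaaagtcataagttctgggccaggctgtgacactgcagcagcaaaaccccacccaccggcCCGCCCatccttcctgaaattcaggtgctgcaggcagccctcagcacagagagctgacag

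Tnfrsf9 downstream start, chr4:150927749-150928048, plus strand: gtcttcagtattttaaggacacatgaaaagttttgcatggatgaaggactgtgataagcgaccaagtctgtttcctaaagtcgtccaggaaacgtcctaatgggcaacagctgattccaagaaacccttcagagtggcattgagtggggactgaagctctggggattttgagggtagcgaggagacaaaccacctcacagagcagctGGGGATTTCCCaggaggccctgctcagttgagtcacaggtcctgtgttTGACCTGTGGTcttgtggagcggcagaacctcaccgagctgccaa

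The upstream window holds a single GC box, read on the minus strand. The downstream window holds a kB match 43 bases before the start, overlapped by a kB match 42 bases before it that reads on both strands, and a ROR and a RUNX match just after the start that share a base. Over all 32851 windows in the table, 8.46% hold the kB motif, 11.2% the letters of the GATA family, 16.8% RUNX, 14.9% ETS, 3.98% T-box, 16.3% ROR and 35.7% a GC box. All 10 receptor genes matched the table, with 12 windows: 2 held a kB match (Tnfrsf9 and Tnfrsf25), 2 RUNX, 4 ETS, 2 ROR, 6 a GC box, and 0 the letters of the GATA family or of T-box factors. A match describes letters and not a bound site.

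Tnfrsf18, which encodes the co-stimulatory receptor GITR (ENSMUSG00000041954, chromosome 4, 156026164 to 156028895, plus strand), had 23.3 and 22.1 CPM in MNK-3, 58.2 CPM in ILC2 and 44.4 CPM in NK. The MNK-3 replicates agreed within their counting intervals (21.5 to 25.3 and 19.8 to 24.6), and lay below ILC2 (53.4 to 63.3) and NK (38.6 to 50.9). The log2 fold of MNK-3 over ILC2 was -1.34 (SE 0.57), which did not pass (limma voom, adjusted p = 0.317), and that over NK was -0.96 (SE 0.94, limma voom, adjusted p = 1.00). Its exons share 414 bases, 27.2% of their length, with Gm16008 on the opposite strand. Without a stated strand setting, it is not known whether reads over these bases were counted, or for which gene. Gm16008 itself had 8.00 and 0.988 CPM in MNK-3, 0.430 in ILC2 and 1.08 in NK.

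Tnfrsf4, which encodes OX40 and ends 9.55 kb before Tnfrsf18 on the same strand (ENSMUSG00000029075, chromosome 4, 156013843 to 156016612), did not follow its neighbour. It had 10.2 CPM in MNK-3 replicate 1, 1.05 CPM in replicate 2, 1.18 CPM in ILC2 and 1.94 CPM in NK. Apart from replicate 1 the libraries overlapped within counting error, at 0.603 to 1.71 CPM for replicate 2, 0.591 to 2.12 for ILC2 and 0.887 to 3.68 for NK. No comparison of Tnfrsf4 passed limma voom. Tnfrsf18 was thus detected well in every library, and Tnfrsf4 at more than 2 CPM in MNK-3 replicate 1 alone. OX40, GITR and 4-1BB are also known from regulatory T cells, whose 3 markers summed to 34.0 and 2.64 CPM in MNK-3, 51.4 CPM in ILC2 and 3.88 CPM in NK. Of these, Foxp3 had 8.31 and 1.19 CPM in MNK-3, 1.08 CPM in ILC2 and 2.59 CPM in NK, and Ctla4 had no count in NK. In ILC2 most of the sum was Ikzf4 (28.9 CPM) and Ctla4 (21.4 CPM), and its part in the receptor values was not tested.

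Cd27, the receptor for CD70 that marks subsets of NK cells, was highest in NK. Cd27 (ENSMUSG00000030336, chromosome 6, 125232622 to 125237010, minus strand) had 30.3 and 2.04 CPM in MNK-3, 4.19 CPM in ILC2 (95% interval 2.98 to 5.73) and 97.0 CPM in NK (88.3 to 106). NK lay above every other library, and the MNK-3 replicates differed 14.8-fold, lying on either side of ILC2. Relative to NK the level was 0.312 (0.278 to 0.351) in MNK-3 replicate 1, 0.0211 (0.0141 to 0.0303) in replicate 2 and 0.0432 (0.0303 to 0.0600) in ILC2. The log2 fold of MNK-3 over NK was -2.81 (SE 0.89) and missed the threshold (limma voom, adjusted p = 0.0650). For ILC2 over NK it was -4.52 (SE 2.97, limma voom, adjusted p = 0.999).

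The receptors of lymphoid organ formation, Tnfrsf11a and Ltbr, shared an order: both MNK-3 libraries were highest, ILC2 was intermediate and NK lowest. Tnfrsf11a, which encodes RANK, the receptor for RANKL (ENSMUSG00000026321, chromosome 1, 105780718 to 105847981, plus strand), had 66.9 and 79.2 CPM in MNK-3, 20.1 CPM in ILC2 (17.3 to 23.2) and 2.16 CPM in NK (1.03 to 3.96). Its range between the group means was 4.79 on the log2 scale, the widest of the 10 genes with both MNK-3 libraries. Without replicate 1 it was 4.91, and Fas (5.47) and Cd27 (5.26) ranged wider. MNK-3 replicates 1 and 2 were 31.0-fold (95% interval 16.8 to 64.8) and 36.7-fold (19.9 to 76.8) above NK, and 3.32-fold (2.86 to 3.89) and 3.94-fold (3.37 to 4.62) above ILC2. ILC2 was 9.33-fold above NK (4.96 to 19.8). None of these passed limma voom (adjusted p = 1.00, 0.698 and 0.999), in which the log2 fold over NK was 4.98 with an SE of 5.01.

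Ltbr, the lymphotoxin beta receptor, which also binds LIGHT (ENSMUSG00000030339, chromosome 6, 125306571 to 125313885, minus strand), had 22.1 and 26.9 CPM in MNK-3, 11.2 CPM in ILC2 (9.14 to 13.6) and 2.59 CPM in NK (1.34 to 4.52). The libraries of the 3 cell types did not overlap. MNK-3 replicates 1 and 2 were 8.55-fold (95% interval 4.86 to 16.7) and 10.4-fold (5.90 to 20.3) above NK, and 1.98-fold (1.60 to 2.46) and 2.41-fold (1.94 to 3.02) above ILC2. Neither passed limma voom (adjusted p = 1.00 and 0.999).

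The windows of Tnfrsf11a and Cd27 are shown because Tnfrsf11a was highest in MNK-3 and lowest in NK, whereas Cd27 was highest in NK.

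Tnfrsf11a, chr1:105780473-105780772, plus strand: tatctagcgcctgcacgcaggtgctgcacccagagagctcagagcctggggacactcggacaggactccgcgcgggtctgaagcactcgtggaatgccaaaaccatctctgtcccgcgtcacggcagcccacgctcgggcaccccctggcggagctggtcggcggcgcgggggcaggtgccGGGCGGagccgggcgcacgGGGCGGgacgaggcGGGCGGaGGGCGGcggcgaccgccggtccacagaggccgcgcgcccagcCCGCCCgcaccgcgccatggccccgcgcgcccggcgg

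Cd27, chr6:125236978-125237277, minus strand: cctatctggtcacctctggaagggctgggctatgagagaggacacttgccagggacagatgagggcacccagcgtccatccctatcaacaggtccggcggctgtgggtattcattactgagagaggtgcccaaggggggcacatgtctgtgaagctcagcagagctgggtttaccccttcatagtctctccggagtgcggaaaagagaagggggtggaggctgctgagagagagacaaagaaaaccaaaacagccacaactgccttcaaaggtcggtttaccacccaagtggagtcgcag

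The Tnfrsf11a window is 76.7% G or C and holds 5 GC box matches. The Cd27 window is 56.0% G or C and holds none of the motifs searched.

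**Figure D3:**
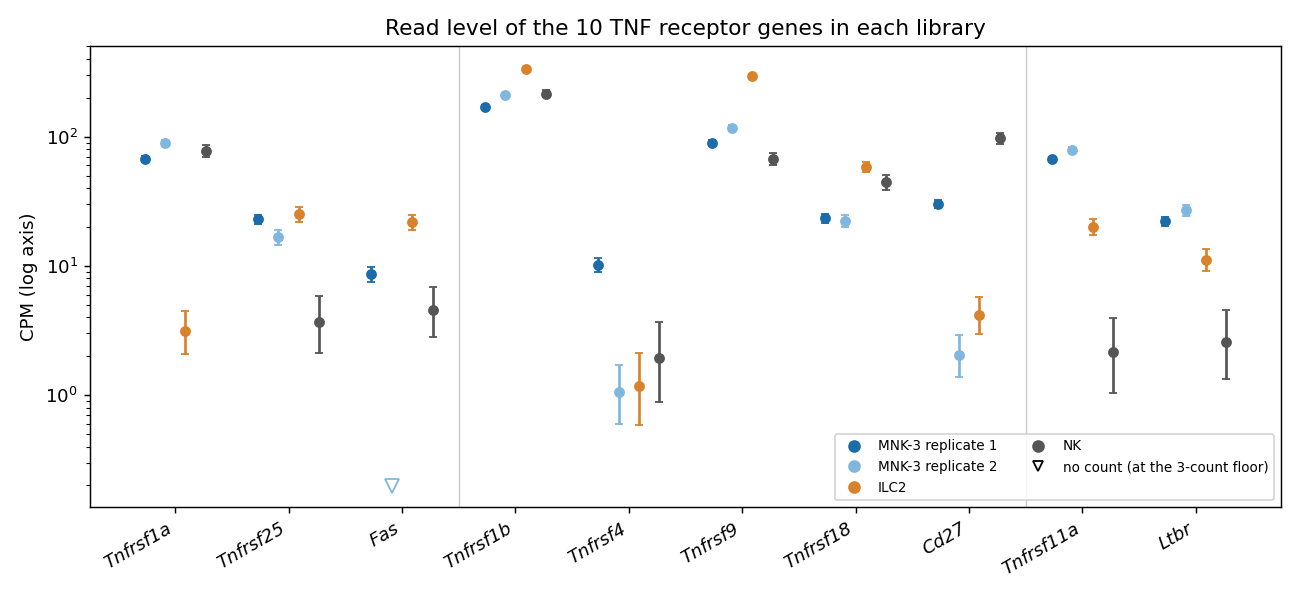
CPM (log axis) of each receptor gene in the 4 libraries, with death domain receptors at left, co-stimulatory receptors and Tnfrsf1b in the middle and Tnfrsf11a and Ltbr at right. Bars are exact 95% Poisson intervals, and the open triangle marks Fas with no count in MNK-3 replicate 2, drawn at 0.198 CPM. MNK-3 replicates lie apart for Tnfrsf4, Cd27 and Fas and close together for the other 7 genes.

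Set against all genes, the family did not stand out by the test in MNK-3 over NK. By limma voom 0 of 10 genes passed (adjusted p under 0.05), where 0.289% of the 25283 genes tested were called higher (73) and 2.04% lower (517). With TMM factors that split was 2 and 122, and with abundant genes or median-of-ratios factors 0 and 92 or 0 and 96. At an unadjusted p under 0.05 there was 1, Cd27, beside 5.19% of all genes tested. A likelihood ratio test with an assumed coefficient of variation of 0.4 called 3 as higher and 1 as lower. Beside this, it called 18.6% of all genes (3970 higher and 734 lower). By size, taken as at least 4-fold with 10 CPM in the higher group, 3 of 10 were higher in MNK-3 (Tnfrsf11a, Tnfrsf25 and Ltbr), beside 7.34% of all genes tested, and 1 was lower (Cd27), beside 2.01%. These shares by size, and those below, also cover genes under 10 CPM in both groups, which cannot meet the rule. Without replicate 1 the same 4 genes met the size rule, beside 5.04% and 3.42% of all genes. Without replicate 2, Cd27 no longer met it and Tnfrsf4 did. The median log2 ratio of the 10 genes was 0.32, and 0.09 without replicate 1, beside 0.88 and -0.26 over all genes tested.

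In MNK-3 over ILC2, 1 of 10 genes passed limma voom, Tnfrsf9 as lower, where 0.902% of all genes tested were called higher (228) and 2.37% lower (600). With TMM factors that split was 0 and 75, with median-of-ratios factors 0 and 52 and with abundant genes 27 and 229. At an unadjusted p under 0.05 there were 3 of 10, beside 7.91% of all genes. The assumed spread called 4 as higher and 1 as lower, beside 47.8% of all genes (11310 higher and 772 lower). By size 1 gene was higher in MNK-3 (Tnfrsf1a), beside 6.32% of all genes, and 1 lower (Fas), beside 1.73%. Without replicate 1 the same genes met the rule, beside 2.97% of all genes higher and 2.88% lower. With replicate 1 alone, Fas was not among them, and Tnfrsf4 and Cd27 joined as higher. The median log2 ratio of the 10 genes was 0.38, and -0.63 without replicate 1, beside 1.12 and 0.00 over all genes tested, so its sign rests on replicate 1.

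In ILC2 over NK, 0 of 10 genes passed limma voom (1 at an unadjusted p under 0.05, Tnfrsf9, beside 4.11% of all genes, and 4 with the assumed spread, beside 6.23%), where 0.479% of all genes were called higher (121) and 0.819% lower (207), against 10 and 35 with abundant genes. By size 4 were higher in ILC2 (Tnfrsf9, Tnfrsf11a, Tnfrsf25 and Fas), beside 3.79% of all genes, and 2 lower (Tnfrsf1a and Cd27), beside 2.73%. The median log2 ratio was 1.28, beside -0.26 over all genes tested. This comparison has a single library a side and its spread is taken from the MNK-3 pair. The 3 comparisons share libraries, and their values are not independent of each other.

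**Figure D4:**
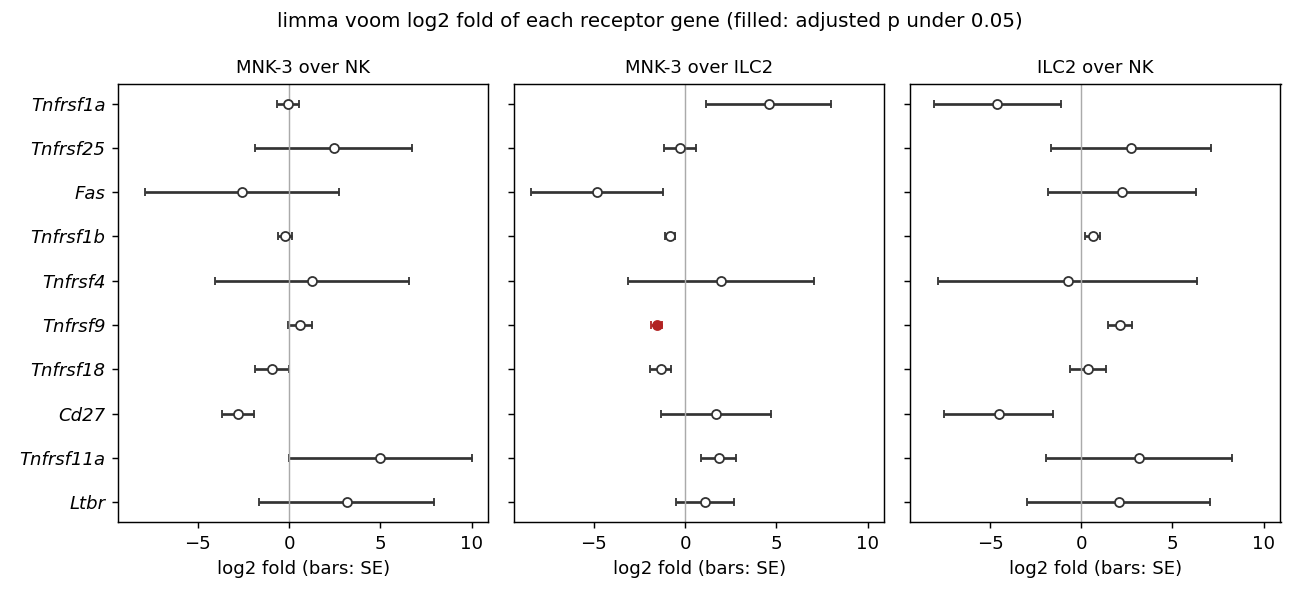
limma voom log2 fold (x axis) of each receptor gene in the 3 comparisons, with bars for 1 SE and a filled red point for an adjusted p under 0.05. The called value is that of Tnfrsf9 in MNK-3 over ILC2 (-1.56), and the bars of genes with low counts in a group span several log2 units.

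Of 11 ligand genes, 3 met the size rule as higher in MNK-3 than in NK, beside 7.34% of all genes, and 2 as lower, beside 2.01%. Against ILC2, 4 met it as higher in MNK-3, beside 6.32%, and 0 as lower, beside 1.73%. All of these counts were the same without replicate 1. The shares of all genes were then 5.04% higher and 3.42% lower over NK, and 2.97% and 2.88% over ILC2. In ILC2 over NK 0 were higher, beside 3.79%, and 3 lower, beside 2.73%. By limma voom 0 of 11 passed in each comparison. In MNK-3 over NK 2 had an unadjusted p under 0.05, beside 5.19% of all genes. The assumed spread there called 4 as higher and 2 as lower, beside 18.6% of all genes (3970 higher and 734 lower). In MNK-3 over ILC2 0 had an unadjusted p under 0.05, beside 7.91%. The assumed spread called 7, all higher, beside 47.8% (11310 higher and 772 lower). In ILC2 over NK these counts were 0, beside 4.11%, and 4, all lower, beside 6.23% (665 higher and 909 lower). Tnfsf11, which encodes RANKL, had 74.2 and 90.8 CPM in MNK-3, 4.41 CPM in ILC2 and 0.647 CPM in NK, so RANKL and its receptor gene Tnfrsf11a were both highest in the line. Ltb, a lymphotoxin chain that engages the Ltbr product, had 106 and 135 CPM in MNK-3, 5.16 CPM in ILC2 and 37.7 CPM in NK. Tnf had 33.1 and 35.7 CPM in MNK-3, 0.538 CPM in ILC2 and 6.04 CPM in NK, and Lta, its neighbour, 28.3 and 33.3 CPM in MNK-3, no count in ILC2 and 0.431 CPM in NK. Tnf, a ligand gene of TNF receptors 1 and 2, was thus lowest in ILC2, the library in which Tnfrsf1b was highest. Lta, which also encodes such a ligand, lay under the level of 3 counts in ILC2 (0.323 CPM) and in NK (0.647 CPM). The order of ILC2 and NK for Lta was therefore not resolved.

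Fasl and Tnfsf14 were highest in NK instead. Fasl, which encodes the ligand of Fas, had 4.10 and 0.0659 CPM in MNK-3, 0.108 CPM in ILC2 and 133 CPM in NK, whereas its receptor gene Fas was highest in ILC2. Tnfsf14, which encodes LIGHT, had 6.64 and 1.38 CPM in MNK-3, 3.23 CPM in ILC2 and 54.8 CPM in NK. Tnfsf9, which encodes the ligand of 4-1BB, had 6.52 and 6.59 CPM in MNK-3, 12.3 CPM in ILC2 and 3.02 CPM in NK. It was highest in ILC2, as was its receptor gene Tnfrsf9. The ligands of OX40, GITR, CD27 and DR3 (Tnfsf4, Tnfsf18, Cd70 and Tnfsf15) had 4.80, 2.69, 1.05 and 3.47 CPM in MNK-3 replicate 1, the highest library for each. They were at most 0.198 CPM in MNK-3 replicate 2 and at most 1.08 CPM in ILC2 and NK. Their replicate 1 values lay under 5.89 CPM, the 95th percentile in that library of the protein-coding genes with no count in replicate 2. Tnfsf15 and Cd70 are themselves among those genes, and these values are not scaled by exon length. Lying under the percentile therefore does not tell what the values are.

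**Figure D5:**
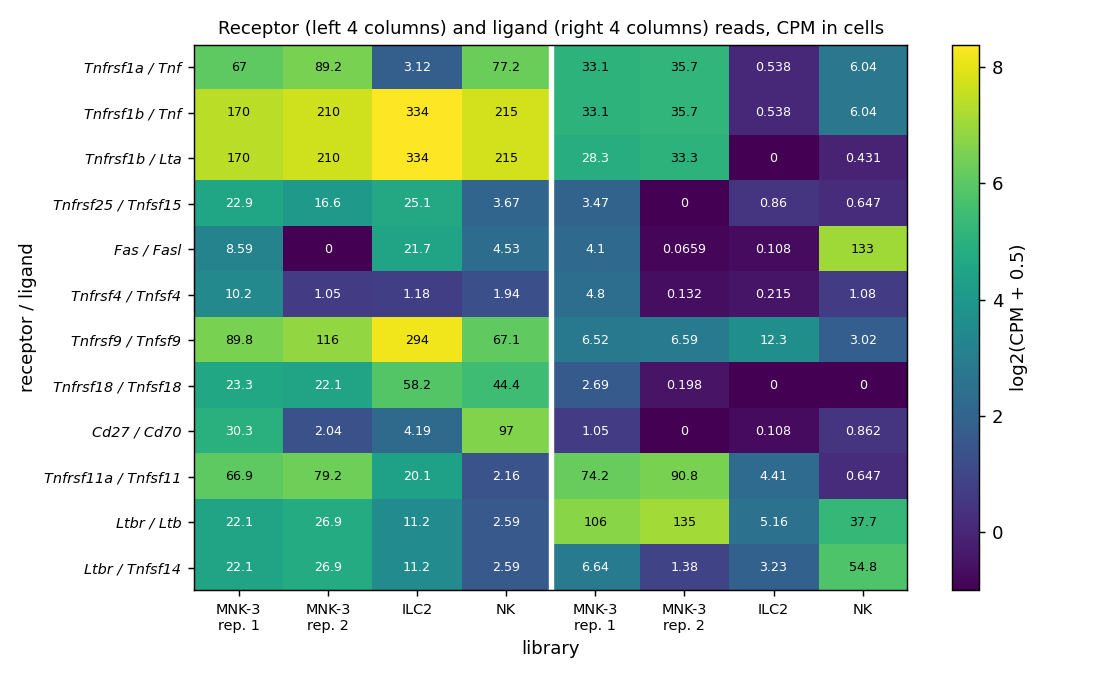
CPM printed in each cell and coloured by log2(CPM + 0.5), for 12 receptor and ligand pairs (rows), with receptor values in the left 4 columns and ligand values in the right 4. Tnfrsf11a and Tnfsf11 are both high in the MNK-3 columns (66.9 and 79.2, and 74.2 and 90.8 CPM), and Fasl is high in NK alone (133 CPM).

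Of 18 other genes of the superfamily, 1 passed limma voom: Tnfrsf8, which encodes CD30, fell in MNK-3 relative to ILC2, beside 2.37% of all genes called lower there. Tnfrsf8 had 27.3 and 0.0659 CPM in MNK-3, 542 CPM in ILC2 and 2.59 CPM in NK, which gave a log2 fold over ILC2 of -7.28 with an SE of 2.26 (limma voom, adjusted p = 0.0419). The log2 ratio of CPM was -5.26, and -9.90 without replicate 1, and the call held with TMM and median-of-ratios factors but not with abundant genes or without the filter on low counts. ILC2 was 209-fold above NK (95% counting interval 120 to 406), which did not pass (limma voom, adjusted p = 0.999). Tnfrsf21, which encodes DR6, had 62.2 and 88.5 CPM in MNK-3, 8.71 CPM in ILC2 and 4.53 CPM in NK, the same order as Tnfrsf11a and Ltbr. Tnfrsf10b, a TRAIL receptor, had 8.78 and 1.52 CPM in MNK-3, 37.1 CPM in ILC2 and 1.72 CPM in NK. Tnfrsf19 had 19.7 CPM in MNK-3 replicate 1 but 0.264 CPM in replicate 2.

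Of 21 adaptor and death signalling genes, 1 passed as higher in MNK-3 over ILC2, beside 0.902% of all genes, and 3 as lower, beside 2.37%. In the other comparisons 0 passed limma voom. At an unadjusted p under 0.05 there were 3 in MNK-3 over NK, beside 5.19% of all genes, and 2 in ILC2 over NK, beside 4.11%, and the assumed spread called 0, beside 18.6%, and 1, beside 6.23%. In MNK-3 over ILC2 there were 8 at an unadjusted p under 0.05 (limma voom), beside 7.91%. The assumed spread there called 3 as higher and 1 as lower, beside 47.8% of all genes (11310 higher and 772 lower). Ripk3, the kinase of necroptosis, had 20.8 and 26.5 CPM in MNK-3, 86.9 CPM in ILC2 and 18.3 CPM in NK (log2 fold over ILC2 of -1.94, limma voom, adjusted p = 0.00612). Casp8, the caspase of death receptors, had 94.6 and 97.3 CPM in MNK-3, against 216 CPM in ILC2, and Birc3, an inhibitor of apoptosis bound by TRAF proteins, 71.5 and 99.3 CPM in MNK-3, against 238 CPM in ILC2. Both fell in MNK-3 (limma voom, adjusted p = 0.0141 and 0.000168). Map3k7, which encodes the kinase TAK1, rose to 169 and 226 CPM in MNK-3, against 71.0 CPM in ILC2 (limma voom, adjusted p = 0.0347). The median log2 ratio of the list was 0.35 in MNK-3 over ILC2, -0.03 in MNK-3 over NK and -0.34 in ILC2 over NK. Over all genes tested it was 1.12, 0.88 and -0.26. Without replicate 1 the list had 0.33 over ILC2 and -0.01 over NK, beside 0.00 and -0.26 over all genes.

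Of 19 genes of the ubiquitin, IKK and NF-kB step, 1 passed as higher in MNK-3 over ILC2, beside 0.902% of all genes, and 4 as lower, beside 2.37%. In MNK-3 over NK 1 passed as higher, beside 0.289%, and 1 as lower, beside 2.04%. In ILC2 over NK 0 passed by limma voom, with 1 at an unadjusted p under 0.05, beside 4.11%, and 1 with the assumed spread, beside 6.23%. At an unadjusted p under 0.05 (limma voom) there were 9 in MNK-3 over ILC2, beside 7.91%, and 5 in MNK-3 over NK, beside 5.19%. The assumed spread called 1 as higher and 2 as lower in each. Beside these, 47.8% of all genes were called in MNK-3 over ILC2 (11310 higher and 772 lower). In MNK-3 over NK it was 18.6% (3970 higher and 734 lower). Nfkb2, which encodes the p100 precursor of the non-canonical pathway downstream of Ltbr and RANK, had 309 and 415 CPM in MNK-3, 158 CPM in ILC2 and 81.7 CPM in NK. It rose over NK and over ILC2 (log2 folds of 2.10 and 1.15, limma voom, adjusted p = 0.0102 and 0.0154). Tnfaip3, which encodes the feedback inhibitor A20, had 134 and 148 CPM in MNK-3, 270 CPM in ILC2 and 596 CPM in NK, and fell relative to both (limma voom, adjusted p = 2.16e-10 over NK and 0.0463 over ILC2). Nfkbia, the inhibitor IkB alpha, had 129 and 161 CPM in MNK-3 against 393 CPM in ILC2, and Bcl3, a nuclear partner of NF-kB, 10.9 and 8.83 CPM against 141 CPM (limma voom, adjusted p = 1.07e-05 and 5.40e-06). Nfkb1 also fell, with 342 and 361 CPM in MNK-3, against 589 CPM in ILC2 (limma voom, adjusted p = 0.0475). The median log2 ratio of the list was 0.14 in MNK-3 over ILC2, -0.05 in MNK-3 over NK and -0.38 in ILC2 over NK. Over all genes tested it was 1.12, 0.88 and -0.26. Without replicate 1 the list had 0.09 over ILC2 and -0.10 over NK, beside 0.00 and -0.26 over all genes.

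These calls depend on how the libraries are scaled, on the filter and on the spread. Of the 13 calls made on the 5 lists with library totals, Tnfrsf9 included, 0 held under all 3 other scalings and 3 under any of them: Tnfrsf8, Bcl3 (with TMM factors) and Nfkb1 (with abundant genes). Without the filter on low counts 7 of the 13 were lost, and with the assumed spread 8. None changed direction in any of these settings. For Tnfaip3 in MNK-3 over NK the log2 fold was -2.10 with library totals and -2.01 with abundant genes, while its SE was 0.29 and 0.57 (limma voom, adjusted p = 2.16e-10 and 0.121).

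By position some of the 10 genes lay in a pair of clusters on mm10. Tnfrsf11a on chromosome 1 and Fas on chromosome 19 had no other member on their chromosome. On chromosome 6, Cd27, Ltbr and Tnfrsf1a lie within gaps of 69.6 and 35.5 kb, yet Cd27 was highest in NK, Ltbr in MNK-3, and Tnfrsf1a was at like levels in MNK-3 and NK. On chromosome 4, Tnfrsf4 and Tnfrsf18 adjoin as given above, whereas Tnfrsf1b, Tnfrsf9 and Tnfrsf25 lie over a megabase from their nearest member. Among genes with at least 10 CPM in a library, those nearest in pattern over the 4 libraries (Euclidean distance of centred log2 values, in log2 units) were Enpp2 (0.16), Exo1 (0.21) and Nsl1 (0.25) for Tnfrsf11a, which with Tnfrsf1a and Cd27 had the widest ranges over both MNK-3 libraries. Exo1, which encodes an exonuclease of DNA repair, had 122 and 132 CPM in MNK-3, 34.5 CPM in ILC2 and 3.45 CPM in NK. For Tnfrsf1a they were Mef2c (0.35), Ifit2 (0.38) and Rgs2 (0.51), and for Cd27 Baiap3 (0.30), Wdr95 (0.38) and Gm44752 (0.40). With 4 libraries such likeness is a description only.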

How the data were processed

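RNA-seq of 4 libraries was used. The submitters' processing notes name STAR 2.7.8a, HTSeq and the build mm10/GRCm38. The gene set, the strand setting and any pooling of technical replicates are not given in the sources used here. The deposited values are of a unit recorded as other: whole-number read counts per Ensembl gene, not normalized, in tab-separated tables under another type of name that the check on units could not read as counts, so no count-model package was used. Entries naming no gene held 76.5% and 26.6% of reads in MNK-3 replicates 1 and 2, 25.9% in ILC2 and 49.3% in NK, and were left out, as were genes not listed in every table.

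CPM used totals over the shared genes, and exon lengths and coordinates came from GENCODE M21. All 4 libraries entered limma voom (limma 3.58.1, R 4.3.3) as 3 groups, keeping genes with 10 counts, scaled to the median library, in at least 1 library and 15 in all, with two-sided tests and Benjamini-Hochberg adjustment over 25283 genes. The MNK-3 pair gives 1 residual degree of freedom and the prior degrees of freedom were infinite, so the spread is pooled over genes, the lone ILC2 and NK libraries are assumed to vary like MNK-3, and p-values measure spread that may be technical. For the size rule 0.5 CPM was added. The likelihood ratio test with an assumed spread used own code. Scripts were tested on simulated data.

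The members, lists and tests were chosen with earlier results of these data known. All members are named. From other lists the text names the genes called and at most 4 of the largest ratios at 10 CPM or more. Ltb, and the remaining ligands with their printed values, were added to pair them with their receptors after their values were seen. Alternatives were other library scalings, no filter on low counts, the assumed spread, fewer libraries in the fit, other added CPM and leaving out each MNK-3 library.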

Additional observations from a re-analysis of the deposited data

How the results depend on the processing

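No paired analysis was possible because ILC2 and NK have 1 library each, so the groups share fewer than 2 replicate numbers. For genes called over the whole table, the count in MNK-3 over NK was 590, against 124 with TMM factors, 96 with median-of-ratios factors, 92 with factors from abundant genes, 389 without the low-count filter and 4704 when a coefficient of variation of 0.4 was assumed. In MNK-3 over ILC2 it was 828, against 75, 52 and 256 with those 3 scalings and 12082 with the assumed spread. In ILC2 over NK it was 328, against 0, 0 and 45 with the scalings, 183 with no filter and 1574 with the assumed spread. Receptor genes called numbered 0 of 10 in MNK-3 over NK and in ILC2 over NK, and 4 in each with the assumed spread. In MNK-3 over ILC2 the 1 call, Tnfrsf9, became 0 with each of the 3 scalings, and there were 2 calls (with Tnfrsf1b) without the filter or with only the 3 libraries compared, and 5 with the assumed spread, which left Tnfrsf9 out. The fitted log2 fold of Tnfrsf9 was -1.56 and lay between -2.07 and -1.53 under these scalings, while its SE was 0.30 and became 0.69 to 1.63. The SE rests on the spread pooled over genes from the MNK-3 pair.

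The size rule gave 2 receptor genes in MNK-3 over ILC2, 1 with 2 CPM added (without Fas), 3 with median-of-ratios factors (with Tnfrsf9), and 2 or 3 when an MNK-3 library was left out. In MNK-3 over NK it gave 4, the same without replicate 1 and with Tnfrsf4 in place of Cd27 without replicate 2, and 3, without Tnfrsf25, with median-of-ratios factors or 2 CPM added (log2 ratio 1.94 in each). In ILC2 over NK it gave 6, and 5 to 7 under the alternatives: Ltbr joined with TMM or median-of-ratios factors or 0.1 CPM added, and Fas left with 2 CPM added. The log2 ratio changed sign without MNK-3 replicate 1 for Tnfrsf4 in both MNK-3 comparisons and for Cd27 over ILC2, and without replicate 2 for Tnfrsf1a and Fas over NK. In MNK-3 over NK it also changed sign for Tnfrsf1a with median-of-ratios factors and for Fas with abundant genes. None of these passed limma voom, but with the assumed spread Tnfrsf4 and Cd27 did in MNK-3 over ILC2 (adjusted p = 0.0249 and 0.0354). Over all genes the median ratio (log2) moved with the scaling, from 0.88 to 0.68, 0.39 and 0.97 in MNK-3 over NK and from 1.12 to 0.77, 0.54 and 1.20 in MNK-3 over ILC2 (TMM, median-of-ratios and abundant genes). Leaving out an MNK-3 library leaves no residual degree of freedom, so those values have no test. NK levels of 1.94 to 4.53 CPM rest on 9 to 21 reads.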
